A study of Daphnia magna with 48 samples.

Results

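Of 6006 Daphnia magna probes, 53 carried lower log2 ratios after exposure to most of 5 chemicals, and they are described here across 8 chemicals. A probe was taken when the mean of its 3 exposed arrays lay at least 0.4 below the mean of its 3 control arrays in at least 4 of isobutanol, 3-chloropropanol, 2,3,4-trichloroaniline, 3,4-dichlorophenol and cadmium, and below it in all 5. The probes were thus chosen by those 5 measured differences, which are given as a description, without a test. The remaining 3 chemicals, aniline, 4-chloroaniline and 3,5-dichloroaniline, took no part in the choice, and the tests below concern them alone.

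Daphnia magna is a freshwater water flea. Newborn animals were held for 96 h at the EC10 of one chemical, the concentration at which 10% of animals were immobilised, or were held as the control of that experiment. Each of the 16 groups, an exposed and a control group per chemical, had 3 biological replicates of 30 pooled whole animals sampled on day 4, and each replicate was hybridised on 1 of 48 2-colour arrays against a reference mixed from control and exposed samples. Media were renewed every 48 h in the experiments with aniline, 4-chloroaniline, 3,5-dichloroaniline and 2,3,4-trichloroaniline, and no renewal is recorded for the others. The sources used here state neither the concentrations nor the clone of the animals. Because whole animals were pooled, fewer cells of a type and less RNA per cell cannot be told apart in any value below.

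Narcosis is the reversible loss of activity that organic chemicals cause when they dissolve into cell membranes. Simple alcohols such as isobutanol act as non-polar narcotics, whereas anilines and phenols, which carry a polar group on an aromatic ring, are treated as polar narcotics. Cadmium is a toxic metal that binds thiol groups and competes with calcium and zinc, and it is not a narcotic. Of the 4 anilines, aniline bears no chlorine, and the others carry chlorine at 1, 2 or 3 positions of the ring, as their names state.

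The table does not pair the probes with genes. None of the 6006 probe identifiers matched the RefSeq gene table of Daphnia (0 matches among 28335 genes), so each probe is called by its identifier and no function is given. All 53 probes have different probe numbers. A value is the log2 ratio of sample over reference, so a negative difference means a lower level after exposure. Both the base of the logarithm and the direction were inferred from the values. The mean linear ratio over 48 arrays should lie near that of the pooled reference, and for the 9 probes with the largest differences its log2 had a median of -0.60 as deposited and 3.69 with the sign turned. All 9 were closer to 0 as deposited, and so were 41 of the other 44, but probes chosen for low values favour this reading. Of 85 probes chosen by the mirrored rule, as higher, 12 were closer to 0 as deposited. Of all 510 probes with an SD over arrays of 0.6 or more, a choice without direction, 328 (64.3%) were. Of all 6006 probes, 2883 (48.0%) were. The direction is therefore inferred and not settled. If the sign were turned, every lower value below would be a higher one.

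Array quality touched these probes in 3 ways. Array medians over all probes lay between -0.02 and 0.01, while the SD within an array ranged from 0.23 to 0.68. Controls 1 and 3 of 3-chloropropanol were nearly alike: the SD of their difference was 0.132 over all probes and 0.089 over the 53, against at least 0.218 over all probes in every other pair of replicates that shared a dye, and with these 2 arrays counted as 1 the rule found 50 probes, 48 of them among the 53. Finally, every exposed group and its control held the 2 dyes in opposite proportion, 2 arrays to 1. Arrays of opposite dye in the same group had a median correlation over all probes of 0.44, and over the 53 of 0.50.

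The 53 probes differed widely in depth. Their mean difference over the 5 chemicals ran from -4.75 to -0.41, with a median of -0.93. For 9 probes it was -3 or lower, for 16 it lay between -2 and -1, and for 28 it was above -1. No probe lay between -3 and -2, so the 9 deepest stood apart from the rest, as the map of differences shows. In all 5 chemicals, 21 probes reached -0.4, and 32 reached it in exactly 4. The chemical that missed was 2,3,4-trichloroaniline for 15 of these 32, cadmium for 7, isobutanol for 5, 3-chloropropanol for 4 and 3,4-dichlorophenol for 1.

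**Figure D1:**
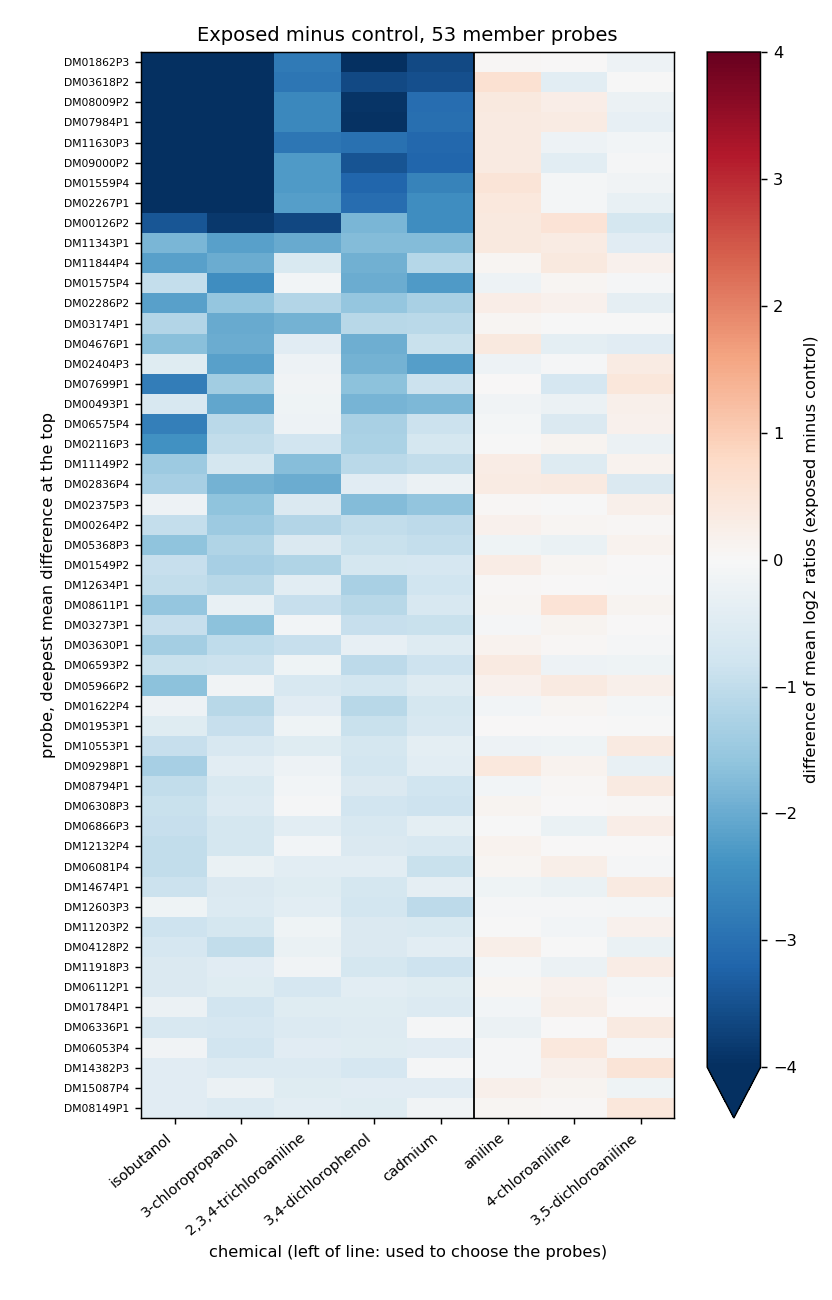
Map of the log2 difference, exposed mean minus control mean, of the 53 probes (rows, ordered by their mean over the 5 chemicals that chose them) in the 8 chemicals (columns), with blue for lower after exposure and the colour scale ending at -4. The first 9 rows are the deepest, with means over these 5 chemicals from -4.75 to -3.05, and the columns of aniline, 4-chloroaniline and 3,5-dichloroaniline show no such band.

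The size of the difference depended on the chemical. The median over the 53 probes was -0.99 with isobutanol, -1.08 with 3-chloropropanol, -0.98 with 3,4-dichlorophenol, -0.84 with cadmium and -0.50 with 2,3,4-trichloroaniline, while the median over all 6006 probes lay between -0.01 and 0.02. With aniline it was 0.08, with 4-chloroaniline 0.01 and with 3,5-dichloroaniline -0.01. Isobutanol gave the deepest difference of the 5 for 25 probes and 3-chloropropanol for 16. For 28 probes 2,3,4-trichloroaniline gave the shallowest. The order has no test, since these values chose the probes, and it moved with the scaling of the arrays. With arrays scaled to equal spread cadmium gave the largest median, -1.03, beside -0.88 with isobutanol and -0.83 with 3-chloropropanol. With quantile normalization 3-chloropropanol gave -0.96, 3,4-dichlorophenol -0.80 and isobutanol -0.69. The trichlorinated aniline had the smallest of the 5 under both, -0.41 and -0.50.

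Counted at -0.4, 48 of the 53 were lower with isobutanol, against 7.66% of all probes. With 3-chloropropanol 49 were, against 5.79% of all probes. The counts were 38 with 2,3,4-trichloroaniline (6.21% of all probes), 52 with 3,4-dichlorophenol (4.9%) and 46 with cadmium (4.06%). These counts follow from the rule. In the chemicals outside it, 0 of 53 reached -0.4 with aniline (2.58% of all probes), 6 with 4-chloroaniline (3.76%) and 4 with 3,5-dichloroaniline (0.866%). Differences of the 53 ran both ways there. They lay between -0.24 and 0.61 with aniline, -0.67 and 0.56 with 4-chloroaniline, and -0.69 and 0.51 with 3,5-dichloroaniline.

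Separation of the replicates is a stricter description. All 3 exposed arrays lay below all 3 controls for 44 of the 53 with isobutanol (16.5% of all probes), 42 with 3-chloropropanol (7.39%) and 45 with cadmium (9.17%). With 2,3,4-trichloroaniline 34 did (11.9%), and with 3,4-dichlorophenol 36 (9.44%). Such separation held in all 5 chemicals for 14 probes, in 4 for 22, in 3 for 10, in 2 for 6 and in 1 for 1 probe. Separation in several chemicals was not counted over all probes, and the rule favours it, so these counts have no background. With aniline 0 of 53 were separated downward (5.36% of all probes), with 4-chloroaniline 0 (3.9%) and with 3,5-dichloroaniline 4 (4.61%). Those 4, named after their values were seen, were DM00126P2, DM02286P2, DM02836P4 and DM09298P1. Upward separation was found for 3 probes with aniline (3.46%), 2 with 4-chloroaniline (5.13%) and 1 with 3,5-dichloroaniline (4.58%).

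Each exposed array was then set against the mean of its own controls. With isobutanol the median over the 53 probes was -1.16, -1.02 and -1.02 on the 3 exposed arrays. With 3-chloropropanol it was -0.99, -1.21 and -1.07. The 3 arrays of 2,3,4-trichloroaniline gave -0.59, -0.52 and -0.62, so the shallower values of this chemical were shared by its replicates. Cadmium gave -0.91, -0.86 and -0.75. Only 3,4-dichlorophenol had an array well away from its replicates, with -0.65 on exposed replicate 1 against -1.06 and -1.09 on replicates 2 and 3. On that array 38 of the 53 lay below all 3 controls, compared with 51 and 53 on the others. Of all probes, 31.0% lay below all 3 controls on replicate 1, 23.5% on replicate 2 and 32.4% on replicate 3. All 15 exposed arrays of the 5 chemicals had a median below that of all 9 exposed arrays of the remaining chemicals, as the plot by array shows. The means of these 15 arrays chose the probes, so this split follows largely from the rule.

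**Figure D2:**
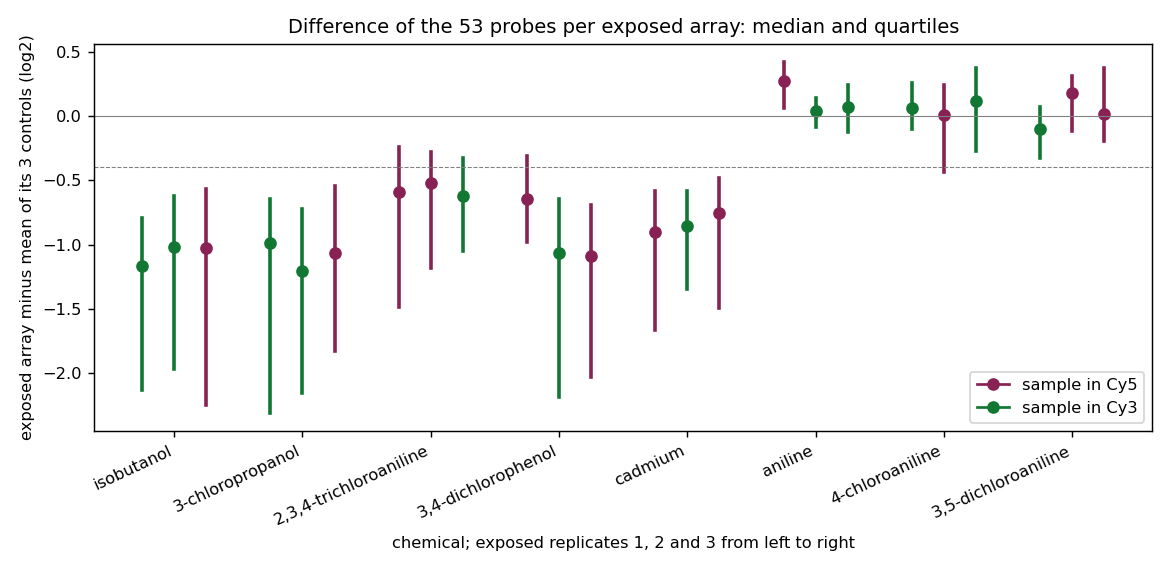
Log2 difference of each of the 24 exposed arrays from the mean of its own 3 controls, as the median (point) and quartiles (bar) over the 53 probes, coloured by the dye of the sample, with a dashed line at -0.4. The medians run from -1.21 to -0.52 on the 15 arrays of the 5 chemicals that chose the probes, and from -0.10 to 0.27 on the 9 arrays of aniline, 4-chloroaniline and 3,5-dichloroaniline.

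DM01862P3 had the deepest mean difference, -4.75. With isobutanol its controls read -0.01, -0.29 and -0.13 and its exposed arrays -7.40, -7.05 and -6.67, a difference of -6.90. The first exposed array gave the lowest value of these 6006 probes over all 48 arrays. With 3-chloropropanol the controls were 0.08, -0.96 and 0.03 and the exposed arrays -6.01, -7.29 and -6.42, a difference of -6.29. In both alcohols the groups lay more than 5 log2 units apart.

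With 2,3,4-trichloroaniline the controls of DM01862P3 read -0.20, 1.06 and -0.47 and the exposed arrays -2.92, -1.98 and -3.19, which gave -2.83. With cadmium the controls read -0.19, -0.57 and -0.79 and the exposed arrays -6.23, -3.28 and -2.90, which gave -3.62. Exposed replicate 1 was far below the other 2, and all 3 were below the controls. With 3,4-dichlorophenol the controls read -0.56, -1.24 and -0.09 and the exposed arrays -1.11, -5.93 and -7.13, which gave -4.09. Here exposed replicate 1 stayed within the range of the controls, so the groups overlapped although the mean difference was the third deepest of this probe.

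The chemicals outside the rule left DM01862P3 near its controls. With aniline the controls read 0.43, 0.22 and -0.63 and the exposed arrays 0.34, -0.32 and 0.14. With 4-chloroaniline the controls read -1.49, 0.08 and 0.15 and the exposed arrays -0.16, -0.13 and -0.92. With 3,5-dichloroaniline the controls read 0.55, -0.47 and -0.05 and the exposed arrays -0.79, 0.47 and -0.24. The groups overlapped in all 3.

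A further 7 probes followed the same course: DM03618P2, DM08009P2, DM07984P1, DM11630P3, DM09000P2, DM01559P4 and DM02267P1, with mean differences of -4.40, -4.27, -4.22, -4.07, -4.06, -3.74 and -3.48. After quantile normalization these 7 lay between -2.48 and -1.87, and DM01862P3 at -2.95. Over all 8 probes the difference ran from -6.90 to -4.84 with isobutanol and from -6.29 to -4.81 with 3-chloropropanol. It ran from -4.09 to -3.0 with 3,4-dichlorophenol, from -3.62 to -2.49 with cadmium and from -2.90 to -2.21 with 2,3,4-trichloroaniline. The ranges of the alcohols did not overlap those of the other chemicals. For 3,4-dichlorophenol this rested on exposed replicate 1, which stayed near its controls. Relative to the controls, the median of the 8 was -0.41 there and -4.76 and -5.60 on replicates 2 and 3.

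Expressed as a share of the control level, the median of the 8 was 1.75% with isobutanol and 2.04% with 3-chloropropanol. It was 8.60% with 3,4-dichlorophenol, 11.6% with cadmium and 16.9% with 2,3,4-trichloroaniline. Without exposed replicate 1 it was 2.63% with 3,4-dichlorophenol and 21.4% with cadmium. With the sign turned, the same values would be levels 57.3 times the control with isobutanol, 49.2 times with 3-chloropropanol, 11.7 times with 3,4-dichlorophenol, 8.60 times with cadmium and 5.93 times with 2,3,4-trichloroaniline. With aniline the 8 had a median of 130%, with 4-chloroaniline 94.3% and with 3,5-dichloroaniline 89.1%. All 68 values at or under -5 in the table belonged to these 8 probes.

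**Figure D3:**
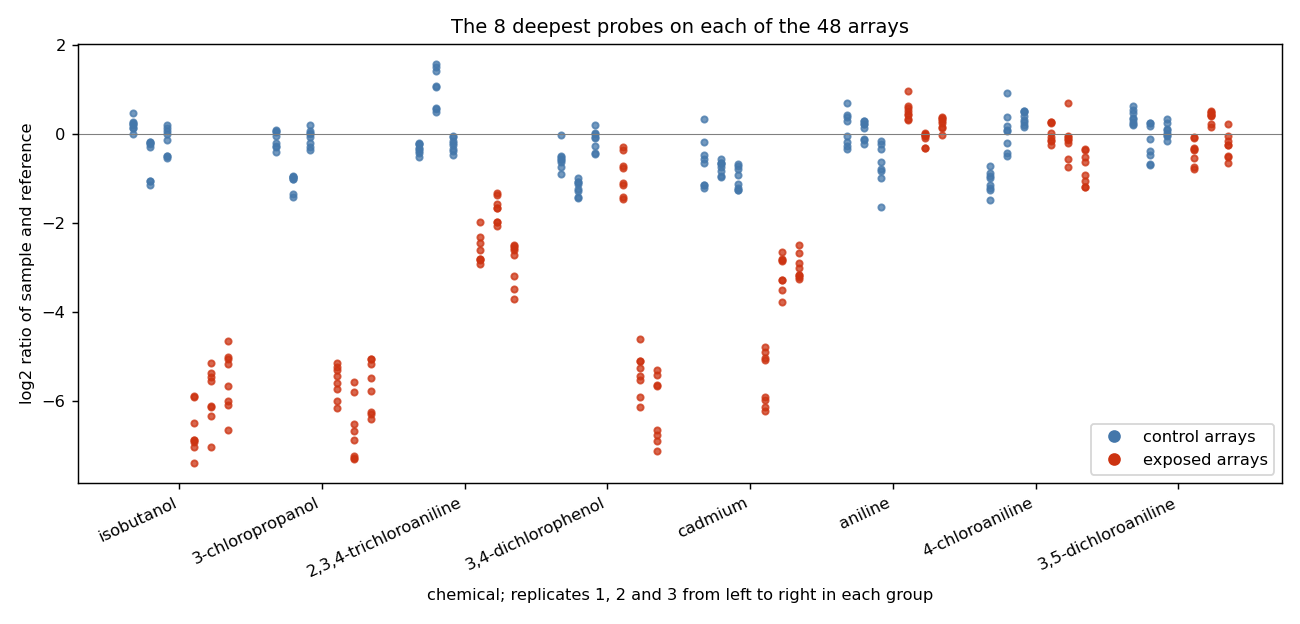
Log2 ratio of the 8 deepest probes on each of the 48 arrays, by chemical, with controls and exposed arrays marked separately. The exposed arrays of isobutanol and 3-chloropropanol form a low band, 3,4-dichlorophenol exposed replicate 1 lies near its controls at -1.47 to -0.30, and cadmium exposed replicate 1 lies at -6.23 to -4.80, below its replicates.

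In 2 chemicals a single exposed array stood apart from its replicates in these probes. With 3,4-dichlorophenol the 8 probes lay between -1.47 and -0.30 on exposed replicate 1, between -6.15 and -4.62 on replicate 2 and between -7.13 and -5.31 on replicate 3. Relative to the controls, the median of the 8 was -0.41, -4.76 and -5.60 on these arrays, while that of the other 45 was -0.68, -0.90 and -0.96. Across the 53 probes, 15 lay within or above the range of the controls on exposed replicate 1, 6 of them among the 9 deepest. The other 38 lay below all 3 controls there, as did 31.0% of all probes. Without exposed replicate 1, the median difference of the 9 deepest with 3,4-dichlorophenol was -5.03, compared with -3.47 with all arrays. With cadmium the 8 probes lay between -6.23 and -4.80 on exposed replicate 1, between -3.78 and -2.65 on replicate 2 and between -3.26 and -2.50 on replicate 3. Relative to the controls, the median of the other 45 was -0.78, -0.76 and -0.62 on these arrays. Without replicate 1, the median of the 9 deepest with cadmium was -2.46, compared with -3.06. The depth of these 9 with 3,4-dichlorophenol rested on its other 2 arrays: it was -2.74 without exposed replicate 2 and -2.48 without exposed replicate 3, both shallower than -3.06 with cadmium.

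The 9th probe, DM00126P2, followed another order of chemicals. With 2,3,4-trichloroaniline its controls read -0.27, 0.83 and 0.21 and its exposed arrays -3.77, -2.41 and -3.99, a difference of -3.64 and the deepest of the 53 for this chemical, ahead of DM11630P3 at -2.90. Isobutanol gave -3.42 and 3-chloropropanol -3.86. With cadmium the difference was -2.50, on exposed values of -3.84, -4.09 and -3.40 that were close together. With 3,4-dichlorophenol the exposed arrays read -0.63, -4.11 and -4.34 against controls of -1.28, -1.39 and -0.88, so replicate 1 again lay apart and above all 3 controls. With 3,5-dichloroaniline, outside the rule, its exposed arrays read -0.71, -0.60 and -1.34, all below controls of -0.24, -0.55 and 0.21, a difference of -0.69 that was the lowest of the 53 for this chemical and was not called by limma (adjusted p of 0.998). DM00126P2 was about as deep with 2,3,4-trichloroaniline as with the alcohols, whereas over the first 8 the median depth with 2,3,4-trichloroaniline was 44.04% of that with isobutanol on the log2 scale.

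DM11343P1, the 10th, was even across chemicals, with -1.83, -2.17, -2.02, -1.74 and -1.72 for isobutanol, 3-chloropropanol, 2,3,4-trichloroaniline, 3,4-dichlorophenol and cadmium. DM11844P4, the 11th, gave -2.17, -1.99, -0.60, -1.93 and -1.14 in the same order. In DM01575P4, the 12th, 2,3,4-trichloroaniline gave only -0.10, with controls of -0.96, 0.45 and -0.08 around exposed values of -0.15, -0.03 and -0.71. With cadmium, by contrast, its controls read -0.60, -1.85 and -1.42 and its exposed arrays -3.11, -4.08 and -3.45, a separated difference of -2.26.

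The probes below are singled out after their values were seen, to show how the members vary. DM02404P3 and DM00493P1 resembled DM01575P4. DM02404P3 gave -2.16 with 3-chloropropanol, -1.89 with 3,4-dichlorophenol and -2.20 with cadmium, but -0.50 with isobutanol and -0.20 with 2,3,4-trichloroaniline. DM00493P1 gave -2.07, -1.87 and -1.80 with the first 3 and -0.64 and -0.17 with the other 2. A dye effect, Cy5 minus Cy3, was called by limma on DM02404P3 (0.60), DM00493P1 (0.57) and DM01575P4 (0.77). These differences are not adjusted for it. Exposed arrays of isobutanol and 2,3,4-trichloroaniline held the dyes in opposite proportion, so the order of these chemicals in DM02404P3 is not settled. In DM02375P3 the difference was -0.19 with isobutanol and between -1.72 and -1.59 with 3-chloropropanol, 3,4-dichlorophenol and cadmium. The differences of the 2 alcohols, close together in the deepest probes, were thus far apart in these 4. In all 4, every isobutanol control lay below every 3-chloropropanol control, so part of the gap lay in the controls. DM02375P3 read -0.93, -1.23 and -0.77 in the isobutanol controls and 0.11, -0.20 and -0.02 in those of 3-chloropropanol. Its exposed arrays read -1.41, -1.06 and -1.02 with isobutanol and -1.83, -2.04 and -1.10 with 3-chloropropanol.

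Isobutanol had the deepest value in other probes. DM07699P1 read 0.81, 1.00 and 0.89 in the isobutanol controls and -2.16, -2.08 and -1.35 after exposure, a difference of -2.76, and DM06575P4 gave -2.75. With 2,3,4-trichloroaniline these 2 probes gave -0.15 and -0.20. In DM02836P4 the order ran the other way, with -1.98 for 2,3,4-trichloroaniline, -1.88 for 3-chloropropanol, -1.33 for isobutanol, -0.46 for 3,4-dichlorophenol and -0.25 for cadmium.

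For the 15 probes that missed the threshold with 2,3,4-trichloroaniline alone, the difference there lay between -0.26 and -0.06. Their medians in the other 4 chemicals were -0.90 with isobutanol, -0.92 with 3-chloropropanol, -0.90 with 3,4-dichlorophenol and -0.83 with cadmium. The medians were alike while single probes varied, such as DM07699P1, with -2.76 for isobutanol and -0.86 for cadmium. Values near 0 with 2,3,4-trichloroaniline are how these 15 were set apart. Their medians were -0.01 with aniline, -0.03 with 4-chloroaniline and 0.06 with 3,5-dichloroaniline.

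Control levels varied between experiments, and some differences rested on high controls. Over the 8 control means, the range had a median of 0.98 for the 53 probes and 0.51 for all probes. The largest ranges were 3.57 for DM05966P2, 3.52 for DM08611P1 and 2.32 for DM02116P3, each with its highest controls in the isobutanol experiment. DM08611P1 read 1.99, 2.76 and 3.06 in the isobutanol controls and 1.12, 1.04 and 0.99 after isobutanol, so that its exposed arrays still stood above those of every other chemical except 3,5-dichloroaniline. Its 3-chloropropanol controls read -1.23, -0.22 and -1.31 and its exposed arrays -1.43, -0.72 and -1.52, which overlapped.

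The 3 probes nearest the threshold from inside were DM04128P2, DM06081P4 and DM08149P1, each with -0.41 in the chemical that decided its entry, the one with the shallowest of its 4 lowest differences. Just outside lay DM05839P2 at -0.39, DM01740P1 at -0.38 and DM12909P1 at -0.35, so the list ends within a continuous range of values. Another 15 probes reached -0.4 in at least 4 of the chemicals but were not lower in the fifth, and for 10 of these the fifth was 2,3,4-trichloroaniline.

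Replicates of the 53 were more variable than those of probes in general. The SD between the 3 replicates, averaged over the 16 groups, had a median of 0.348 for the 53 and 0.159 for all 6006. It was lowest for DM11918P3 (0.109), DM01953P1 (0.137) and DM06308P3 (0.156), and highest for DM03618P2 (0.885), DM11630P3 (0.824) and DM09000P2 (0.813). DM11918P3 is an example of a steady probe: with 3,4-dichlorophenol its controls read -0.18, -0.22 and -0.06 and its exposed arrays -0.87, -0.83 and -0.91. All 3 exposed values lay below all controls and close together.

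The differences were also taken within each dye, as a description, since the same arrays chose the probes. Among arrays with the sample in Cy3, the median difference of the 53 was -1.04 with isobutanol, -1.0 with 3-chloropropanol, -0.51 with 2,3,4-trichloroaniline, -1.15 with 3,4-dichlorophenol and -0.85 with cadmium. With the sample in Cy5 it was -0.98, -1.12, -0.67, -0.95 and -0.94. Each of these rests on 3 arrays. A dye effect was called by limma, at an adjusted p under 0.05, on 17 of the 53 probes and on 35.2% of all probes.

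Choosing the probes without the chemical being counted gave a further description. When the rule was applied to 4 chemicals, asking for -0.4 in at least 3 and a lower mean in all 4, the list chosen without isobutanol held 69 probes, and 48 of them (69.6%) were at or under -0.4 with isobutanol, against 7.66% of all probes. Without 3-chloropropanol, 49 of 70 (70.0%) were, and without 3,4-dichlorophenol 52 of 65 (80.0%). Without cadmium, 46 of 85 (54.1%) were, and without 2,3,4-trichloroaniline 38 of 91 (41.8%). Each listed probe that also reached -0.4 in the chemical left out is one of the 53. These counts therefore repeat those of the rule, and only the list lengths are new. The share was highest without 3,4-dichlorophenol and lowest without 2,3,4-trichloroaniline, and each was at least 6 times that of all probes. Every list holds the 53, whose replicates varied more than those of all probes, so all probes are not a matched background.

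Aniline, 4-chloroaniline and 3,5-dichloroaniline were tested with limma, in a fit of all 48 arrays that also estimated the dye effect. Of the 53 probes, 0 were called with aniline (0% of all probes), 0 with 4-chloroaniline (0.0333%) and 0 with 3,5-dichloroaniline (0%). At an unadjusted p under 0.05, 2 of the 53 passed with each chemical (3.77%), compared with 6.18%, 10.04% and 4.41% of all probes. The lowest adjusted p in limma among the 53 was 0.704 with aniline, 0.450 with 4-chloroaniline and 0.998 with 3,5-dichloroaniline. In the mean effect of these 3 chemicals, 0 of 53 were called (0.0167% of all probes) and 0 passed at an unadjusted p under 0.05, with a lowest adjusted p of 0.904.

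The confidence intervals say what could have been seen. For each of the 8 deepest probes, the 95% limma interval with each of these 3 chemicals stayed above the difference the same probe had with 2,3,4-trichloroaniline. With aniline DM01862P3 gave 0.19 (-1.47 to 1.85). Its value with 4-chloroaniline was 0.16 (-1.50 to 1.82), and with 3,5-dichloroaniline it was -0.34 (-2.0 to 1.32), beside -2.83 with 2,3,4-trichloroaniline. A change as deep as that was outside the intervals, and a change of 1 log2 unit either way was inside them. The values with 2,3,4-trichloroaniline took part in choosing the probes, and their own error is left out here.

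Over all 53 probes, the interval stayed above the probe's mean over the 5 chemicals for 47 with aniline, 46 with 4-chloroaniline and 49 with 3,5-dichloroaniline. For the shallower probes it could not exclude the smallest of their 5 differences: it stayed above that value for 27, 23 and 23 of the 53. The 5 differences were chosen to be low, and their own error is left out of both comparisons. These counts are therefore a description and not a test. The width to either side ran from 0.20 to 1.78 for the 53, with a median of 0.57, and had a median of 0.28 for all probes.

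The 3 chemicals were also compared with each other in pairs, in 3 comparisons at the EC10 of each and at the same time, with p-values adjusted over all probes. Since the concentrations are not given, the compounds are matched in effect on mobility and not in dose. Aniline and 4-chloroaniline differ by 1 chlorine, and no difference between their effects was called for any of the 53 (0% of all probes), with a lowest adjusted p in limma of 0.516. For 3,5-dichloroaniline against aniline 0 were called (0%), with a lowest adjusted p of 0.507. For 3,5-dichloroaniline against 4-chloroaniline 0 were called (0%), with a lowest adjusted p of 0.2999. At an unadjusted p under 0.05 in limma the counts were 1, 3 and 2 of the 53 (1.89%, 5.66% and 3.77%). Of all probes, 8.89%, 5.56% and 8.67% passed. Adjusted over the 3 pairs as well, the lowest values were 0.573, 0.421 and 0.408. The intervals of the first pair reached 0.28 to 2.50 log2 units to either side of the estimate, with a median of 0.81.

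The lowest adjusted p among the 53 belonged to DM11918P3, for 3,5-dichloroaniline against 4-chloroaniline. With 4-chloroaniline its controls read -0.20, 0.06 and -0.01 and its exposed arrays -0.18, -0.24 and -0.41, which overlapped. With 3,5-dichloroaniline its controls read -0.26, -0.25 and -0.10 and its exposed arrays 0.05, 0.06 and 0.18, all above the controls. The difference between the effects was 0.54 ± 0.15 (SE), with an adjusted p in limma of 0.2999. DM04676P1 had the lowest adjusted p for 3,5-dichloroaniline against aniline. With aniline its controls read 0.27, -0.61 and -0.43 and its exposed arrays 0.43, 0.19 and -0.18. With 3,5-dichloroaniline its controls read -0.20, -0.17 and 0.24 and its exposed arrays -0.86, -0.73 and 0.08. Both pairs of groups overlapped. The limma estimate was 0.54 (0.05 to 1.03) with aniline and -0.60 (-1.09 to -0.11) with 3,5-dichloroaniline, and the difference of -1.14 ± 0.35 (SE) had an adjusted p of 0.507. When limma also weighted each array by its estimated quality, this difference was -1.52 and was called, with 4 other members. The weighted fit thus called 5 of the 53 in this comparison, and 607 of all 6006 probes. Such calls therefore do not set the 53 apart from probes in general.

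By the mean difference over aniline, 4-chloroaniline and 3,5-dichloroaniline, the 53 lay between -0.16 and 0.25. The lowest were DM06575P4 at -0.16 and DM04676P1 at -0.15, and the highest DM08611P1 at 0.25 and DM05966P2 at 0.24. The intervals for these probes in the plot of the 3 anilines cross 0 in most cases, and 51 of the 53 did so with each chemical.

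**Figure D4:**
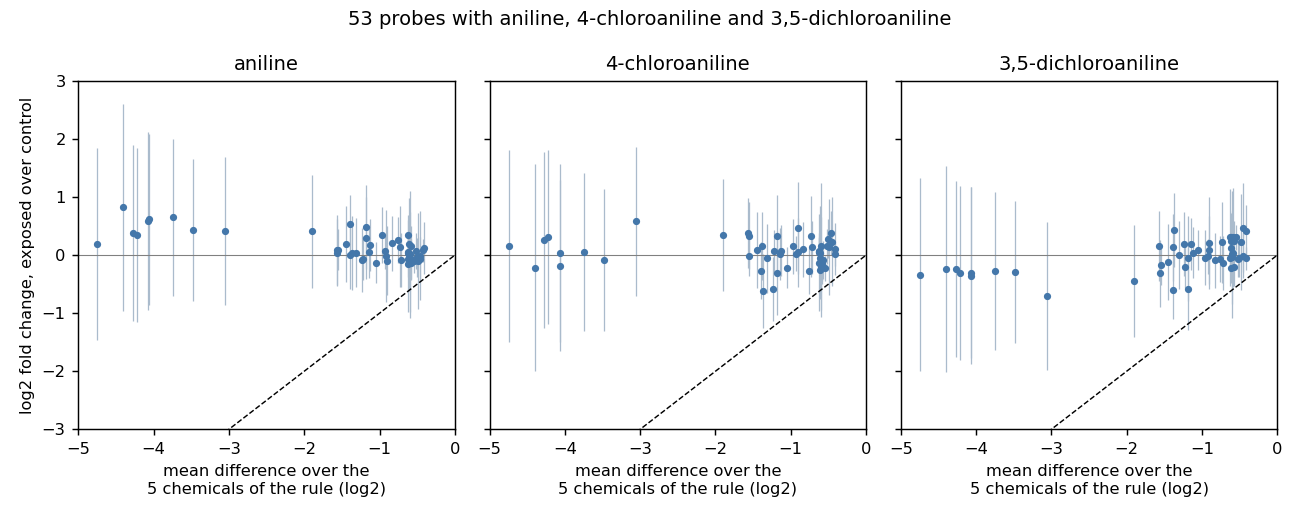
Estimated log2 effect of aniline, 4-chloroaniline and 3,5-dichloroaniline on each of the 53 probes, with 95% limma intervals, against its mean log2 difference over the 5 chemicals that chose it; the dashed line marks equal values. Of the 53 intervals, 51 cross 0 in each chemical, and they are widest for the deepest probes.

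Within groups, the deepest probes varied together. After the group means and the dye effect were removed, the correlation between 2 members over 48 arrays had a median of 0.14 over 1378 pairs, and the median over all probes was 0.00. Among the 8 deepest it was 0.94, with a range of 0.87 to 0.99. These 48 arrays include exposed replicate 1 of 3,4-dichlorophenol and of cadmium, on which the 8 probes stood apart. Over the 18 arrays of aniline, 4-chloroaniline and 3,5-dichloroaniline, which the rule did not use, the 8 had a median of 0.80 and a range of 0.47 to 0.98, beside 0.15 for the 53 and 0.00 for all probes. The points share arrays, dye and animals, so these correlations describe the arrays and carry no test.

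**Figure D5:**
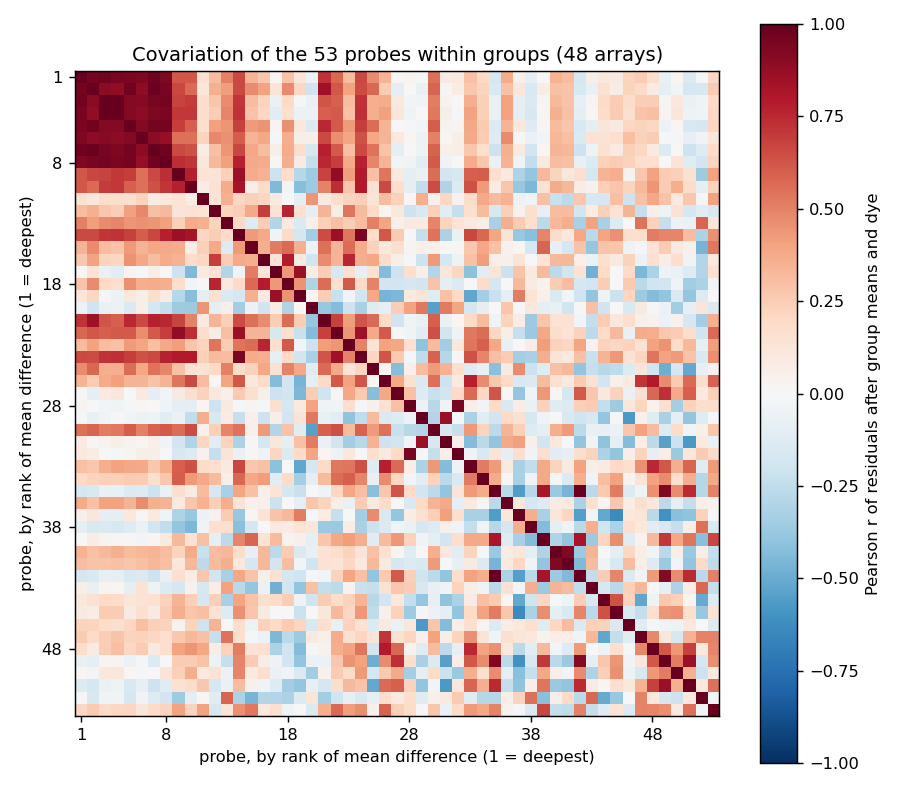
Pearson correlation between pairs of the 53 probes, both axes in order of depth, over 48 arrays after removal of group means and dye effect (red above 0, blue below). The 8 deepest probes form a block with correlations of 0.87 to 0.99, while the median over all pairs of the 53 is 0.14.

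Linking every pair with a correlation above 0.9 gave 5 sets with 17 of the 53 probes, and the other 36 stood alone. The largest set was the 8 deepest probes, in which DM08009P2 and DM07984P1 had the highest correlation, 0.993. Another set held DM10553P1, DM14674P1 and DM06336P1, with 0.991 between the first 2. These 3 gave differences between -0.91 and -0.47 in the 4 chemicals of the rule other than cadmium, and -0.38, -0.35 and -0.06 with cadmium. With 3,5-dichloroaniline they gave 0.36, 0.36 and 0.37, with aniline -0.20, -0.17 and -0.24, and with 4-chloroaniline -0.18, -0.25 and 0.00. The pairs were DM03174P1 with DM00264P2, DM08611P1 with DM05966P2, and DM12132P4 with DM06081P4. DM08611P1 and DM05966P2 are also the 2 with the highest isobutanol controls. Whether linked probes lie in the same transcript cannot be read from the identifiers.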

How the data were processed

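The values are normalized log2 ratios, which the authors deposited as a single table with 6006 Daphnia probes and 27 control rows over 48 arrays, with 0 missing values. The log base and the direction, sample over reference, were inferred from the values. Background correction, normalization and probe filter were not given in the sources used here. Per the labels, labelling started from 100 ng of RNA, and 1 of the 3 replicates of a group carried one dye and the other 2 the other. Ratios carry no brightness, so signal over background is unknown, and the number of arrays limits the precision. Labels call the replicates biological, and p-values measure the spread between these pools.

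Differences are the mean of 3 exposed minus the mean of 3 control arrays. Tests used limma 3.58.1 in R 4.3.3, with 16 group means and a dye covariate over 48 arrays (31 residual degrees of freedom), moderated two-sided tests and Benjamini-Hochberg adjustment over 6006 probes. A probe is called at an adjusted p under 0.05. The code was tested on simulated data. Figures used matplotlib 3.10.9 in Python 3.11.15. Alternatives were other thresholds, dye adjustment, scaling to equal spread, quantile normalization, group medians, array weights, no dye covariate, arrays of the compared chemicals only, a filter on probe SD, a replicate block and leaving out each array.

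The members and lists were chosen with earlier results of these data known. Named members are the 12 deepest, the lowest 2 per chemical of the rule, the extremes over the 3 remaining chemicals, any called, the 3 nearest the threshold on each side and the 3 steadiest and 3 most variable. Others are named after their values were seen.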

Additional observations from a re-analysis of the deposited data

Results flagged for a closer look

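For 6 combinations of a probe and a chemical outside the rule, all 3 exposed arrays lay above all 3 controls, while in at least 2 of the chemicals that chose the probe all 3 lay below. In each case the difference from the chemicals that chose the probe was not tested. Upward separation of this kind was found for 3.46% of all probes with aniline, 5.13% with 4-chloroaniline and 4.58% with 3,5-dichloroaniline.

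With aniline, DM00264P2 read -0.09, 0.08 and 0.07 in the controls and 0.34, 0.11 and 0.14 after exposure, a difference of 0.176, and it was separated downward in 5 chemicals. DM06593P2 with aniline had a difference of 0.350 and was separated downward in 3. DM09298P1 with aniline had 0.418 and was separated downward in 4. It was also separated downward with 3,5-dichloroaniline, and its difference in effect between 3,5-dichloroaniline and aniline had an adjusted p of 0.526 in limma. With 4-chloroaniline, DM08611P1 had a difference of 0.557 and DM05966P2 one of 0.347, each separated downward in 2 chemicals. With 3,5-dichloroaniline, DM11918P3 read -0.26, -0.25 and -0.10 in the controls and 0.05, 0.06 and 0.18 after exposure, a difference of 0.303, and it was separated downward in 4. The limma fit called 0 of these 6 with the chemical named.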

How the results depend on the processing

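The rule found 84 probes at a threshold of -0.3, 35 at -0.5 and 21 when all 5 chemicals had to pass. Dye adjustment found 51 (46 of them among the 53), scaling of arrays to equal spread 41 (35), quantile normalization 36 (33) and group medians 43 (38). Leaving out 1 array at a time found 45 to 55. Median differences without 1 array ranged from -1.11 to -0.92 with isobutanol, -1.23 to -1.03 with 3-chloropropanol, -0.57 to -0.50 with 2,3,4-trichloroaniline, -1.09 to -0.84 with 3,4-dichlorophenol, -0.89 to -0.78 with cadmium, 0.01 to 0.13 with aniline, -0.07 to 0.10 with 4-chloroaniline and -0.05 to 0.08 with 3,5-dichloroaniline. Scaling gave -0.83 with 3-chloropropanol and -1.03 with cadmium. Quantile normalization, which forces one distribution on all arrays, gave -0.69 with isobutanol, -0.80 with 3,4-dichlorophenol and -0.62 with cadmium. It also moved the mean difference of the deepest probe, DM01862P3, from -4.75 to -2.95. This alternative for single probes, and leaving out an exposed replicate for the deepest probes with 3,4-dichlorophenol and cadmium, were chosen after seeing the data. All these medians kept their direction in the 5 chemicals of the rule.

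Array weights called 2 members with aniline (DM04676P1 at 0.61 and DM11203P2 at 0.36), 1 with 3,5-dichloroaniline (DM04676P1 at -0.91), 5 for 3,5-dichloroaniline minus aniline (DM04676P1 at -1.52, DM04128P2 at -0.67, DM08794P1 at 0.66, DM09298P1 at -0.45 and DM11918P3 at 0.43) and 1 for 3,5-dichloroaniline minus 4-chloroaniline (DM11918P3 at 0.62), where the unweighted fit called 0. Over all probes the weighted fit called 623, 41, 607 and 17 in these comparisons, against 0 in each without weights. The weights of the aniline controls were 0.252, 3.73 and 0.184, so these calls with aniline rest largely on 1 control array, and the cause was not tested. Fits of the compared chemicals' arrays only, without the dye covariate, or on scaled or quantile-normalized values called 0 members in every comparison. So did fits on probes with an SD above the median or without any 1 array of the chemicals compared. Over all probes these fits called from 0 to 150. With aniline, scaled values gave 28, quantile-normalized values 35 and leaving out control replicate 1 gave 114. Without that control, 4-chloroaniline minus aniline gave 150. Leaving out 4-chloroaniline control replicate 3 gave 89 with 4-chloroaniline. Of 24 pairs of equally numbered exposed and control arrays, 13 had deviations that correlated above 0.1, with a range of -0.43 to 0.42, so the numbers were not taken as pairs. With the replicate block 0 members were called in every comparison, and at most 7 of all probes.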
